A study of Mus musculus with 6 samples.

Results

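Glucose metabolism of the lens was followed through 33 genes of glucose uptake, glycolysis, lactate handling, the pentose phosphate pathway and the polyol pathway. They were chosen by pathway: a gene belonged if it stood on this list and the array carried a probe whose RefSeq accession matched it, which held for all 33 of the 20659 genes named on the array. Of the 33, 31 passed the filter on dim probes and were tested, and Slc2a3 and Rpia did not pass. The comparison asked which of these transcripts differ in level when βB2-crystallin, an abundant structural protein of the lens, carries the W151C substitution of tryptophan by cysteine. Lenses came from mice aged 3 months, in 3 knock-in samples (replicates 1, 2 and 4) with the substitution introduced by CRISPR/Cas9 into the Crybb2 gene, and 3 wild type samples (replicates 1, 2 and 3). Each RNA sample was labelled with Cy3 and hybridised to its own single-colour array. The sources used here do not give the zygosity, the number of founder lines, the strain or whether lenses of several animals were pooled on an array. The p-values therefore reflect how much single arrays vary, and part of that variation may be technical.

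The lens has no blood supply and lives at low oxygen. Most of its cells are fibre cells that lose their mitochondria as they mature, so the lens draws most of its energy from anaerobic glycolysis. The pentose phosphate pathway supplies NADPH, which keeps glutathione reduced. In the polyol pathway aldose reductase turns glucose into sorbitol and sorbitol dehydrogenase turns sorbitol into fructose, a route known for sorbitol build-up in sugar cataract.

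Signals are given as log2 of the processed spot signal relative to the 75th percentile of the same array, and differences are knock-in minus wild type on that scale, so that 1 is 2-fold. The brightness of the arrays differed: the 75th percentile lay between 120 and 201 on 5 arrays and at 698 on wild type array 3. Wild type arrays 1 and 2 correlated at 0.996 over genes and wild type array 3 at 0.953 to 0.961 with them. The file headers place all knock-in arrays in 1 slide scan, wild type arrays 1 and 2 in another and wild type array 3 in a scan of its own on another day. Genotype therefore cannot be told apart from slide. Beside the pathway genes that passed stand the values without wild type array 3, which are also those within the shared scan day, and those under a random slide effect. Knock-in array 4 also stood apart. All 8 markers of retina and neurons were well above background there, against 5 on knock-in array 1, 6 on knock-in array 2 and 4 on each wild type array. Sag, the photoreceptor arrestin, read 1.39 on knock-in array 4, but -2.63 and -2.84 on the other knock-in arrays and -5.64 to -4.37 on the wild type arrays. All 12 lens fibre markers and all 9 lens epithelial markers were above background in wild type lenses.

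Most steps of glycolysis and of the pentose phosphate pathway did not pass the test, and 7 of the 31 tested genes did. Eno2, the neuronal enolase, and Gpi1, glucose-6-phosphate isomerase, were higher in knock-in lenses. Lower were Eno3, the muscle enolase, Sord, sorbitol dehydrogenase, Pfkfb3, which makes the activator of phosphofructokinase, Aldoc, aldolase C, and Slc16a3, the lactate exporter MCT4. The test was limma's across all genes with Benjamini-Hochberg adjustment and a threshold of 0.05 on adjusted p. The 2 higher genes compare with 13.3% of all 12785 genes called higher and the 5 lower genes with 12.6% called lower. In both directions together 22.6% of the tested pathway genes passed against 25.9% of all genes, a share near the background. The median difference was 0.00 over the 31 genes and -0.04 over all genes. After quantile normalization 5 were higher and 4 lower, and with median centring 1 and 4, where 1143 of all genes were higher and 1655 lower against 1697 and 1615 as reported. The genotypes did not overlap for 14 genes against 45.9% of all genes: 6 lay higher in knock-in lenses, against 22.7%, and 8 lower, against 23.1%. All 31 genes were well above background on all 6 arrays.

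**Figure D1:**
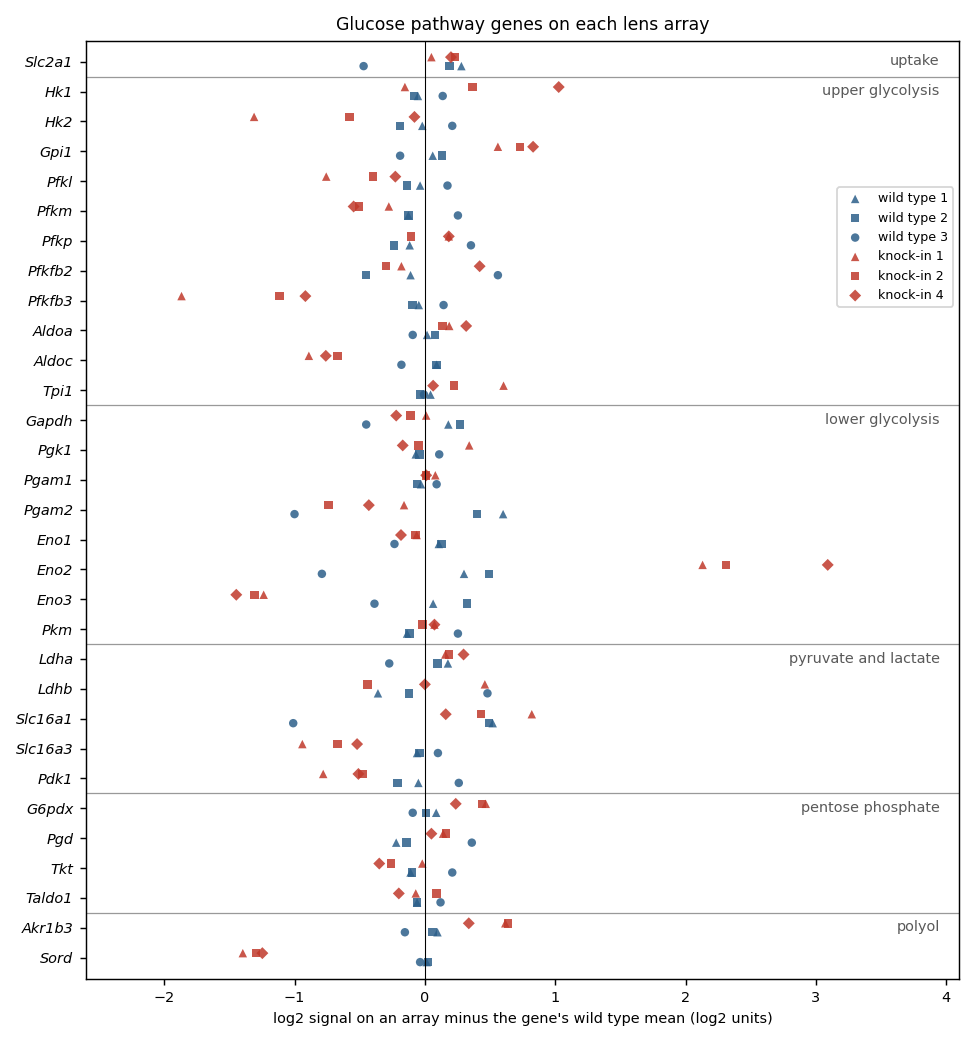
Log2 signal of each of the 31 tested genes on each of the 6 arrays, minus the mean of that gene's 3 wild type arrays (horizontal axis, log2 units), with genes in pathway order. Red symbols are knock-in and blue symbols wild type arrays. The 3 knock-in values of Eno2 lie far to the right and those of Eno3, Sord and Pfkfb3 to the left of all wild type values, while for most other genes both colours overlap or lie close.

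**Figure D2:**
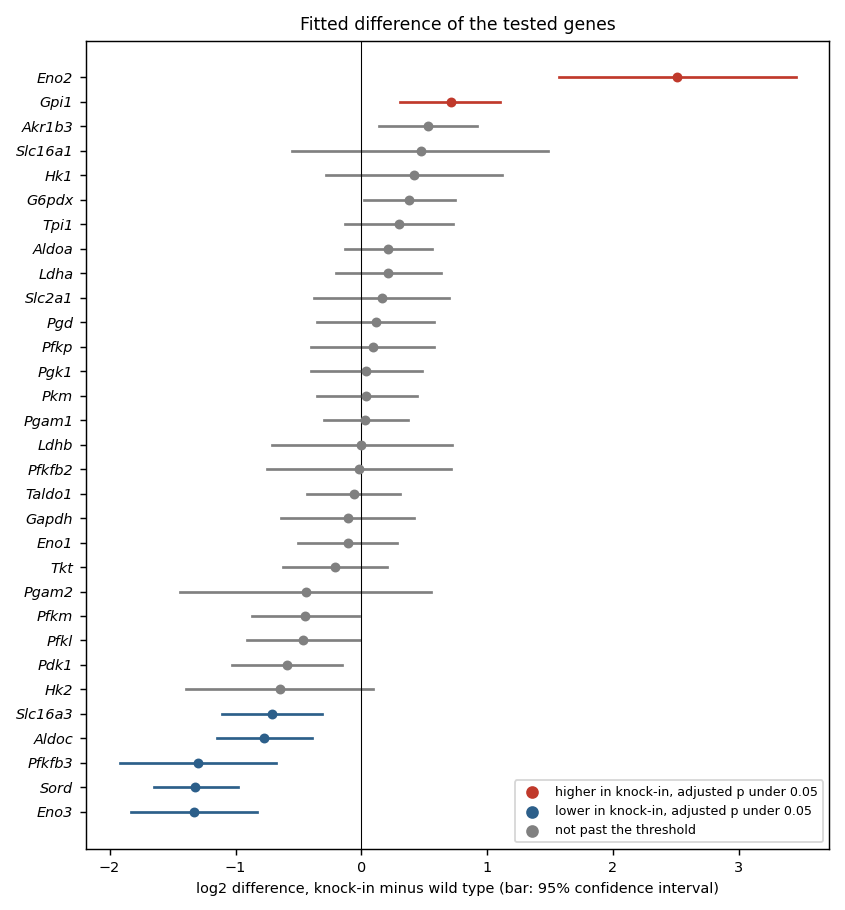
Fitted log2 difference, knock-in minus wild type, of the 31 tested genes, each with its 95% confidence interval, unadjusted for the number of genes. Red and blue mark the 2 higher and 5 lower genes past the threshold, and grey the 24 that did not pass.

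The upstream sequences of the 7 genes that passed are shown because several genes of glycolysis are known targets of hypoxia-inducible factor (HIF), which binds hypoxia response elements with the cores ACGTG and GCGTG. Each is the 250 bases before the first listed start in the RefSeq table of GRCm38.p6, written 5′ to 3′ in the direction of the gene. Capitals mark a match to either core on either strand, where CACGT and CACGC are the same cores read from the other strand. The genes that were lower come first: Sord (chr2:122234589-122234838, plus strand), Pfkfb3 (chr2:11553930-11554179, minus strand), Aldoc (chr11:78322823-78323072, plus strand), Eno3 (chr11:70656926-70657175, plus strand) and Slc16a3 (chr11:120948817-120949066, plus strand). Gpi1 (chr7:34230337-34230586, minus strand) and Eno2 (chr6:124769674-124769923, minus strand) were higher.
Sord: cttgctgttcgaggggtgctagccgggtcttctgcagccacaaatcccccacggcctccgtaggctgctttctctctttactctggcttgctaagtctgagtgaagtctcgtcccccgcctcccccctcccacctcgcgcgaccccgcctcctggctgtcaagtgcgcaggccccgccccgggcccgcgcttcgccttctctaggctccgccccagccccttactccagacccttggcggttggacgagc
Pfkfb3: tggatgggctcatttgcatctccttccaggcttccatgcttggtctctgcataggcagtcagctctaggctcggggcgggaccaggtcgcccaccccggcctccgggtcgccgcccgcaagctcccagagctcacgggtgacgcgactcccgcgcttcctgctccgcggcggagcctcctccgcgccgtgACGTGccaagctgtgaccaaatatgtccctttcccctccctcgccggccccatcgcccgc
Aldoc: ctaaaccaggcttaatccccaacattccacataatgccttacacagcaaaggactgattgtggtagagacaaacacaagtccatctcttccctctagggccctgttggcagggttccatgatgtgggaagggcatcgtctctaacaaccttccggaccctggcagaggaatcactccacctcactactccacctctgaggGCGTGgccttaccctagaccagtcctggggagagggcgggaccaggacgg
Eno3: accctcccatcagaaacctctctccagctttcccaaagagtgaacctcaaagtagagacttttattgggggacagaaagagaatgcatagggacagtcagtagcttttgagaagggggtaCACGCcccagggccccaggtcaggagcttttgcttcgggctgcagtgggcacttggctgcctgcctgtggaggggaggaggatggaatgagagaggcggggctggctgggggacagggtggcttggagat
Slc16a3: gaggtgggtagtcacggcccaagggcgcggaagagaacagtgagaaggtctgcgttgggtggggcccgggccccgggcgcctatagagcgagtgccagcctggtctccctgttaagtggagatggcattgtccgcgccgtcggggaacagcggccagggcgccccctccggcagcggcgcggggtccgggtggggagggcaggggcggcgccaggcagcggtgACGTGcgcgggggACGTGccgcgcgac
Gpi1: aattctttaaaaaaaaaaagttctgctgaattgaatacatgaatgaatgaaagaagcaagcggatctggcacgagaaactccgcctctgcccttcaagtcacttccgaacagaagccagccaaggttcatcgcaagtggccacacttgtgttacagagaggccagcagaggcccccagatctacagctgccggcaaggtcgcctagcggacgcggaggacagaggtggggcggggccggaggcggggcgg
Eno2: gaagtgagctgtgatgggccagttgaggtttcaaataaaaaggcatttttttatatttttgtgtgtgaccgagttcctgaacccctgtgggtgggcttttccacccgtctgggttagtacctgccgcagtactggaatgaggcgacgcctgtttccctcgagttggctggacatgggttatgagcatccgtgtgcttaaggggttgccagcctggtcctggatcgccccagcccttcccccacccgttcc

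Slc16a3 held 2 matches in these 250 bases. Pfkfb3 held 1 match at 60 bases, Aldoc 1 at 50 bases and Eno3 1 at 130 bases before the start, and Sord, Gpi1 and Eno2 held none. Counting a gene if any of its listed start windows had a match, 4 of the 5 lower genes, 0 of the 2 higher genes and 21 of the 23 genes with a window that were tested and did not pass had one. Over all 27025 genes with a window the share was 41.5%. Matches that overlap, as in a palindrome CACGTG, count on both strands. A match to 5 letters is a description of the sequence and not a binding site.

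Uptake of glucose is carried by Slc2a1, the facilitative transporter GLUT1, which is known as the main glucose transporter of lens epithelium. It read 7.03, 7.21 and 7.18 on knock-in arrays 1, 2 and 4. On wild type arrays 1, 2 and 3 it read 7.26, 7.17 and 6.51. The knock-in values lay inside the wild type range, and the difference was 0.16 (95% confidence interval -0.38 to 0.70, limma adjusted p = 0.644). Without wild type array 3 it was -0.07. Slc2a3, the transporter GLUT3 of neurons and other cells, was dim: it read -3.55, -2.87 and -3.65 in knock-in and -5.03, -5.67 and -5.29 in wild type lenses, and was well above background on 1 knock-in array and on no wild type array. Without the filter on dim probes its difference was 1.97 (limma adjusted p = 0.012), a size set against background.

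At the entry to glycolysis, the hexokinases Hk1 and Hk2, which phosphorylate glucose, leaned in opposite directions without passing the test. Hk1 read 2.13, 2.65 and 3.31 on the knock-in arrays and 2.23, 2.20 and 2.42 on the wild type arrays, a difference of 0.42 (SE 0.30, limma adjusted p = 0.336). Its highest value lay on knock-in array 4, and without that array the difference was 0.11. Hk2 read 0.72, 1.45 and 1.95 on the knock-in arrays and 2.01, 1.84 and 2.24 on the wild type arrays, a difference of -0.65 (SE 0.31, limma adjusted p = 0.168), and the groups overlapped. The ratio of Hk1 to Hk2 within an array does not depend on the scaling between arrays. It was higher on every knock-in array than on every wild type array, and its group means differed by 1.07 on the log2 scale.

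Gpi1, which converts glucose 6-phosphate to fructose 6-phosphate, was higher in knock-in lenses. It read 4.92, 5.09 and 5.19 on the knock-in arrays and 4.42, 4.49 and 4.17 on the wild type arrays, and the groups did not overlap. The rise of 0.71 (SE 0.17, limma adjusted p = 0.0219) is 1.63-fold. Its 3 probes all differed in this direction, by 0.71, 0.45 and 0.43. Within the shared scan day the rise was 0.61 (limma adjusted p = 0.0154). Under a random slide effect it did not pass (0.73, limma adjusted p = 0.188), nor without knock-in array 2, knock-in array 4, wild type array 1 or wild type array 2 (limma adjusted p = 0.096, 0.0664, 0.0815 and 0.0567). Median centring, normexp background correction and testing without the filter on dim probes also ended the call (limma adjusted p = 0.101, 0.0625 and 0.0761).

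At the step of phosphofructokinase, the control point of glycolysis, the gene that passed was a regulator. Pfkfb3 makes fructose 2,6-bisphosphate, the strongest activator of the enzyme. It read 1.08, 1.83 and 2.03 on the knock-in arrays and 2.90, 2.85 and 3.09 on the wild type arrays. All knock-in values lay below all wild type values, with knock-in array 1 the lowest. Its fall by 1.30 on the log2 scale (SE 0.26, limma adjusted p = 0.013) is 2.46-fold. Within the shared scan day the difference was -1.23 (limma adjusted p = 0.0174), and under a random slide effect -1.32 (limma adjusted p = 0.181). A second, dim Pfkfb3 probe, well above background on 4 arrays, differed by -0.39, and the mean of both probes by -0.84 (limma adjusted p = 0.0762).

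Pfkfb2, another isozyme of the same regulator, differed by -0.02 (95% confidence interval -0.75 to 0.71). The 3 subunits of the enzyme itself did not pass. Pfkl, the liver type, read -1.52, -1.16 and -0.99 in knock-in and -0.80, -0.90 and -0.59 in wild type lenses. Pfkm, the muscle type, read -1.15, -1.38 and -1.42 against -1.0, -1.0 and -0.62. Both lay lower on all knock-in arrays, by 0.46 and 0.45 on the log2 scale, with limma adjusted p = 0.123 and 0.111. Pfkp, the platelet type, differed by 0.09 with overlapping groups. Its second probe differed by -0.72, so the direction for Pfkp depends on the probe.

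Of the aldolases Aldoc passed and Aldoa did not. Aldoc, an isozyme known from brain, read 6.39, 6.61 and 6.52 on the knock-in arrays and 7.37, 7.37 and 7.10 on the wild type arrays. No knock-in value reached the lowest wild type value. It fell by 0.77 on the log2 scale (SE 0.16, limma adjusted p = 0.0144), which is 1.71-fold. The fall was larger without wild type array 3 (-0.86, limma adjusted p = 0.00402), and did not pass under a random slide effect (-0.74, limma adjusted p = 0.17) or after quantile normalization (-0.43, limma adjusted p = 0.12). It also did not pass without knock-in array 2, wild type array 1 or wild type array 2 (limma adjusted p = 0.0555, 0.0769 and 0.0653), nor without the filter on dim probes (limma adjusted p = 0.0555). Aldoa, the isozyme of muscle and most tissues, differed by 0.21 (SE 0.15, limma adjusted p = 0.323). The ratio of Aldoa to Aldoc was higher on every knock-in array than on every wild type array. Its group means differed by 0.99 on the log2 scale. Tpi1, triose phosphate isomerase, differed by 0.30 (limma adjusted p = 0.266).

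In lower glycolysis, the enzymes of each step that serve most tissues differed little, while both tissue-restricted enolases passed in opposite directions. Gapdh, the dehydrogenase that makes NADH, read 8.17, 8.05 and 7.94 in knock-in and 8.34, 8.43 and 7.71 in wild type lenses. The knock-in values lay within the wild type range, and the difference was -0.11 (95% confidence interval -0.64 to 0.42). Its 7 probes differed by -0.32 to 0.73. Pgk1, Pgam1 and Pkm, the kinase, mutase and pyruvate kinase of most tissues, differed by 0.04, 0.03 and 0.04. The intervals of these were -0.40 to 0.48, -0.30 to 0.37 and -0.35 to 0.44. Gapdh, Pgk1, Pgam1 and other glycolytic genes have many processed pseudogenes, so probes can bind related transcripts and single probes are uncertain.

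Eno2 showed the largest difference among the 31 genes. It read 0.86, 1.04 and 1.82 on knock-in arrays 1, 2 and 4, and -0.97, -0.78 and -2.06 on wild type arrays 1, 2 and 3. Every knock-in value lay above 0 and every wild type value below it. The rise of 2.51 (SE 0.40, limma adjusted p = 0.00547) is 5.70-fold. It was 2.22 without knock-in array 4 (limma adjusted p = 0.0194) and 2.12 without wild type array 3 (limma adjusted p = 0.00308), and 2.64 under a random slide effect (limma adjusted p = 0.0552).

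Markers of retina and neurons moved with Eno2 in part. Of 8 listed, 5 were tested, and Tubb3, a neuronal tubulin, and Pdc, the photoreceptor protein phosducin, rose by 2.85 (limma adjusted p = 0.00755) and 4.57 (limma adjusted p = 0.0377). Over all genes 13.3% were called higher. Pdc read -1.60, -0.95 and 3.31 on the knock-in arrays, so it was far higher on array 4, where Eno2 read 1.82 against 1.04 and 0.86. Tubb3 was even across the knock-in arrays at -0.48, -0.45 and -0.65. Pdc was well above background on 1 wild type array and Tubb3 on 2, so both sizes are set partly against background. Gnat1, the rod transducin subunit, read -1.47, -1.12 and 3.13 in knock-in and -2.99, -4.06 and -3.20 in wild type lenses, a difference of 3.60 that did not pass (limma adjusted p = 0.0587). The other tested markers, Snap25 and Syp of synapses, differed by -1.57 and -0.03 and did not pass (limma adjusted p = 0.0507 and 0.948). Thus Sag, Gnat1, Pdc and Tubb3, like Eno2, were higher on every knock-in array than on every wild type array. Snap25 went the other way and was lower on every knock-in array. The groups overlapped for Pde6b, Nefl and Syp. Sag, Pde6b and Nefl did not pass the filter on dim probes. Under a random slide effect Tubb3 passed (3.05, limma adjusted p = 0.034) and Pdc did not (4.37, limma adjusted p = 0.347). The summed level of the 8 markers overlapped between groups, at 14.2, 10.4 and 33.4 on the knock-in arrays and 30.4, 32.7 and 11.1 on the wild type arrays, in units of the array's 75th percentile. Snap25 and Syp made up nearly all of that sum on the wild type arrays, so the sum does not show the level of the other markers. Sag and Nefl were above background on no wild type array. Of the 8 markers, 5 were above background on knock-in array 1, 6 on knock-in array 2 and 4 on each wild type array. The part of cells of the retina or nerves in the Eno2 result was not tested. In a whole tissue, fewer cells of a type and less RNA per cell cannot be told apart.

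**Figure D3:**
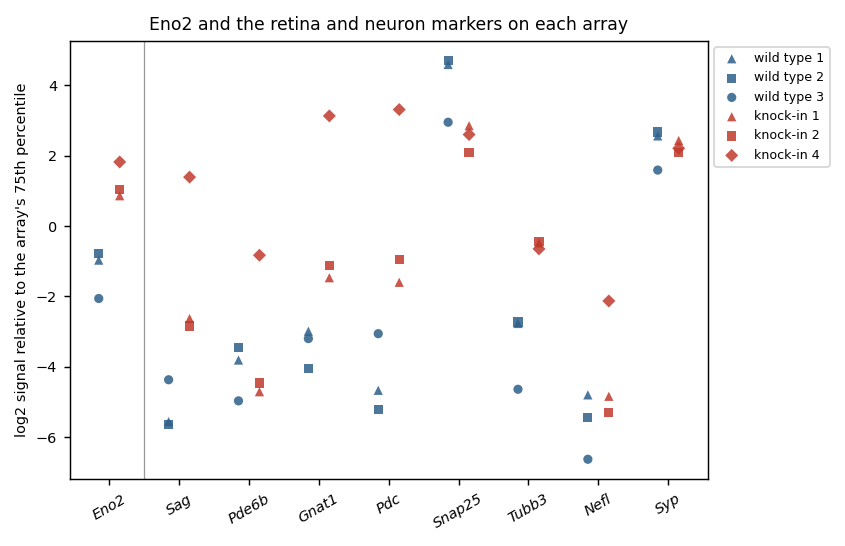
Log2 signal relative to the array's 75th percentile (vertical axis) of Eno2 and of 8 markers of retina and neurons on each of the 6 arrays, red for knock-in and blue for wild type. Knock-in array 4, the red diamond, is far above the other arrays for Sag, Pde6b, Gnat1, Pdc and Nefl. Eno2, Sag, Gnat1, Pdc and Tubb3 are each higher on all 3 knock-in arrays than on all wild type arrays, and Snap25 is lower.

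Eno3 fell. It read 3.44, 3.37 and 3.23 on the knock-in arrays and 4.74, 5.0 and 4.29 on the wild type arrays, with no overlap. The difference was -1.33 (SE 0.21, limma adjusted p = 0.00563), which is 2.51-fold. Without wild type array 3, the lowest of its group, it was -1.52 (limma adjusted p = 0.000943), and under a random slide effect -1.27 (limma adjusted p = 0.0741). Eno1, the enolase of most tissues, read 6.10, 6.09 and 5.98 in knock-in and 6.27, 6.29 and 5.93 in wild type lenses, and differed by -0.11 (95% confidence interval -0.50 to 0.28). The ratio of Eno1 to Eno3 was 2.66 to 2.74 on the knock-in arrays and 1.29 to 1.64 on the wild type arrays, on the log2 scale.

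Of 8 skeletal muscle markers listed, 2 were tested, and both were called lower, against 12.6% of all genes. Acta1, an actin of muscle, fell by 1.29 on the log2 scale (limma adjusted p = 0.0209), and Ckm, the muscle creatine kinase, was not above background on the knock-in arrays (limma adjusted p = 0.0239). Ckm passed the filter on dim probes through the wild type arrays alone, so its p-value compares signal with background. Neither Acta1 nor Ckm passed under a random slide effect (limma adjusted p = 0.253 and 0.212). The summed level of the 8 was 1.21 to 2.27 in knock-in and 3.08 to 3.46 in wild type lenses. Acta1 made up most of that sum on every array, so it does not show the level of the others. Myh4 and Mb, a myosin and myoglobin of muscle, were above background on no array. Of the remaining untested markers, Tnni2, Mylpf and Actn3 had a higher and Tnnt3 a lower mean in knock-in lenses. The groups overlapped for each of them. Pgam2, the muscle mutase, read 1.25, 0.67 and 0.98 in knock-in and 2.01, 1.81 and 0.41 in wild type lenses. Its difference of -0.44 did not pass (limma adjusted p = 0.473), and was -0.94 without wild type array 3 (limma adjusted p = 0.012). The part of muscle tissue in these values was not tested.

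At the end of glycolysis, Ldha, the lactate dehydrogenase subunit of glycolytic tissues, read 6.85, 6.88 and 6.99 in knock-in and 6.87, 6.79 and 6.42 in wild type lenses. The groups overlapped, and the difference was 0.21 (95% confidence interval -0.20 to 0.63). Its other probes differed by -0.93 and 0.24. Ldhb, the heart type subunit, differed by 0.00 (95% confidence interval -0.71 to 0.72). After quantile normalization Ldha differed by 0.56 and passed (limma adjusted p = 0.0436).

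Of the lactate transporters measured, the Slc16a3 transcript was lower and Slc16a1 did not pass. Slc16a3, or MCT4, which is known to release lactate from glycolytic cells, read 0.97, 1.24 and 1.39 on the knock-in arrays and 1.85, 1.87 and 2.01 on the wild type arrays. The highest knock-in value lay below the lowest wild type value. It fell by 0.71 on the log2 scale (SE 0.17, limma adjusted p = 0.0235), which is 1.64-fold, and both of its probes fell, the other one by 0.77. Within the shared scan day the difference was -0.66 (limma adjusted p = 0.0205). It did not pass under a random slide effect (-0.73, limma adjusted p = 0.228), nor with normexp background correction, where it was -0.36 (limma adjusted p = 0.287). Median centring and testing without the filter on dim probes ended the call too (limma adjusted p = 0.0769 and 0.0795). Leaving out knock-in array 2, wild type array 1 or wild type array 2 also ended the call (limma adjusted p = 0.0881, 0.0831 and 0.074). Slc16a1, the transporter MCT1, differed by 0.47 (SE 0.43) with overlapping groups, and by -0.04 without wild type array 3.

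Pdk1, a kinase that shuts off pyruvate dehydrogenase and so keeps pyruvate from the mitochondria, lay lower on all knock-in arrays. It read -1.30, -1.0 and -1.03 in knock-in and -0.57, -0.73 and -0.26 in wild type lenses. The difference of -0.59 (SE 0.19) just missed the threshold (limma adjusted p = 0.0567).

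In the pentose phosphate pathway none of the 4 tested genes passed limma's test, and 1, G6pdx, had an unadjusted p under 0.05. G6pdx, glucose-6-phosphate dehydrogenase, which makes the first NADPH, read 1.95, 1.92 and 1.72 in knock-in and 1.57, 1.49 and 1.39 in wild type lenses. The groups did not overlap, and the difference was 0.38 (95% confidence interval 0.02 to 0.74, limma adjusted p = 0.109). Pgd, which makes the second, differed by 0.12. Tkt, transketolase of the non-oxidative branch, read 5.48, 5.24 and 5.15 in knock-in and 5.39, 5.40 and 5.71 in wild type lenses, a difference of -0.21 (95% confidence interval -0.62 to 0.20). Taldo1, transaldolase, differed by -0.06. Rpia, the ribose isomerase, was well above background on 1 knock-in and 1 wild type array and was not tested. It read -3.0 to -3.30 in knock-in and -3.45 to -4.49 in wild type lenses.

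In the polyol pathway the second enzyme fell and the first leaned the other way. Sord read 2.72, 2.82 and 2.87 on knock-in arrays 1, 2 and 4 and 4.13, 4.14 and 4.08 on wild type arrays 1, 2 and 3. The arrays of each genotype lay close together, wild type array 3 included, and the groups did not overlap. The fall of Sord by 1.32 on the log2 scale (SE 0.14, limma adjusted p = 0.00118) is 2.49-fold. It was the one gene of the 7 that passed in all 16 alternative settings, where the difference lay between -1.37 and -1.20. Under a random slide effect it was -1.31 (limma adjusted p = 0.0263). Akr1b3, the mouse aldose reductase, read 5.06, 5.08 and 4.78 in knock-in and 4.54, 4.50 and 4.29 in wild type lenses. No arrays overlapped, and the difference of 0.53 (SE 0.17) missed the threshold (limma adjusted p = 0.0558). Its second probe differed by 0.35. The ratio of Akr1b3 to Sord was 2.34, 2.26 and 1.91 on the knock-in arrays and 0.41, 0.36 and 0.21 on the wild type arrays, on the log2 scale.

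The number of pathway genes called varied with the setting, and so did the share of all genes. Under a random slide effect, 1 of 31 pathway genes passed, Sord, against 4.85% of all genes, with 2.83% called higher and 2.02% lower. With a scan day term, which is the fit without wild type array 3, 8 passed against 43.5%, with 19.6% called higher and 24% lower. Quantile normalization gave 9 against 27.7%, median centring 5 against 21.9% and normexp 5 against 11.2%. Without the filter 5 of 33 passed against 9.69%, and the stricter filter, above background on all 6 arrays, gave 9 against 26.3%. The mean of a gene's probes gave 6 against 25.8%, outlier spots kept gave 7 against 25.9%, and replicate number as a block gave 10 against 42.6%. Leaving out knock-in array 1, 2 or 4 gave 7, 4 and 6 against 19.2%, 12% and 18.6%. Leaving out wild type array 1 or 2 gave 4 each, against 13.2% and 14.5%.

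**Figure D4:**
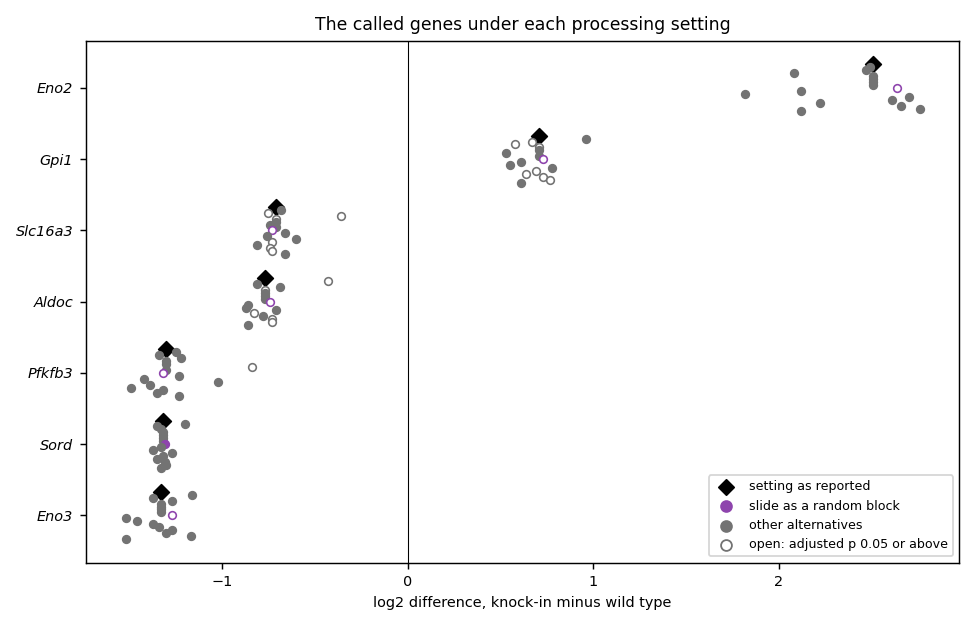
Log2 difference of the 7 called genes (horizontal axis) in the setting as reported (black diamonds) and under the 16 alternatives (circles), filled where the adjusted p was below the threshold and open where it was not. All circles keep the side of 0 of their diamond, and Sord has no open circle, while the value under a random slide effect, in purple, is open for the other 6 genes.

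Markers of lens cells and of other cell types were read on the same arrays. Over all genes 12.6% were called lower and 13.3% higher. Of 12 fibre markers, 6 fell and none rose by limma's test, nor did any rise at an unadjusted p under 0.05. Their median was -0.91, against -0.04 over all genes. Their summed level was 1370 to 1570 in knock-in and 1330 to 4020 in wild type lenses, lowest on wild type array 3. Of 9 epithelial markers, 1 rose and 3 fell, with a median of -0.46, and their summed level was 61.5 to 66.9 in knock-in and 49.1 to 60.9 in wild type lenses. Pdpn, podoplanin, which rose by 1.55 (limma adjusted p = 0.00077), carries the higher sum, while Aqp5, Foxe3 and Gas6 fell by 1.66, 1.11 and 0.59 on the log2 scale (limma adjusted p = 0.00184, 0.0148 and 0.0325). Of 8 leukocyte markers tested, 2 rose and 1 fell. Tyrobp, a signalling adaptor of myeloid cells, was on no wild type array above background and was at least 5.11-fold higher (limma adjusted p = 0.00291). It passed the filter on dim probes through the knock-in arrays alone, so its p-value compares signal with background. C1qc, a complement subunit made by macrophages, rose by 4.39 (limma adjusted p = 0.00977) and Itgam, the integrin CD11b, fell by 1.65 on the log2 scale (limma adjusted p = 0.0404). None of these 3 passed under a random slide effect (limma adjusted p = 0.0693, 0.0919 and 0.238). C1qc was well above background on 1 wild type array, so its size is set partly against background. Ptprc, which marks all leukocytes, was too dim to test, and the summed level of the list was 10.4 to 19.5 in knock-in and 13.3 to 41.9 in wild type lenses. Of 3 red cell markers tested Hbb-bt, a globin, rose by 2.11 (limma adjusted p = 0.0127), and under a random slide effect it did not pass (limma adjusted p = 0.197). Hbb-bt was well above background on 2 wild type arrays, so its size too is set partly against background. Of 4 pigment cell markers tested none passed limma's test, and 2 were higher at an unadjusted p under 0.05. The part of the cell makeup of the lens in the pathway differences was not tested.

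To ask whether isozymes or neighbouring enzymes changed unequally, the log2 ratio of 2 genes within each array was compared between genotypes for 13 pairs. Such a ratio is free of the scaling between arrays, though its absolute size compares different probes and has no meaning. The knock-in arrays lay wholly on one side of the wild type arrays for 8 pairs, 6 of which hold a gene that passed. Of single genes 45.9% did so, and the share over other pairs of genes was not computed. The largest shifts were -2.62 for Eno1 to Eno2, 1.84 for Akr1b3 to Sord, -1.28 for Pfkfb3 to Pfkfb2 and 1.22 for Eno1 to Eno3. Slc16a3 to Slc16a1 shifted by -1.18, and Pfkp to Pfkm by 0.53. An exact two-sided permutation test of 3 against 3 arrays gave p = 0.1 for each of these 8, the smallest it can give, and 0.162 after adjustment over the 13 pairs, so no pair could pass. Ratios overlapped for Pfkl to Pfkm, Pgam1 to Pgam2, Ldha to Ldhb, Tkt to Taldo1 and G6pdx to Pgd, with shifts of -0.01, 0.48, 0.21, -0.15 and 0.27.

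**Figure D5:**
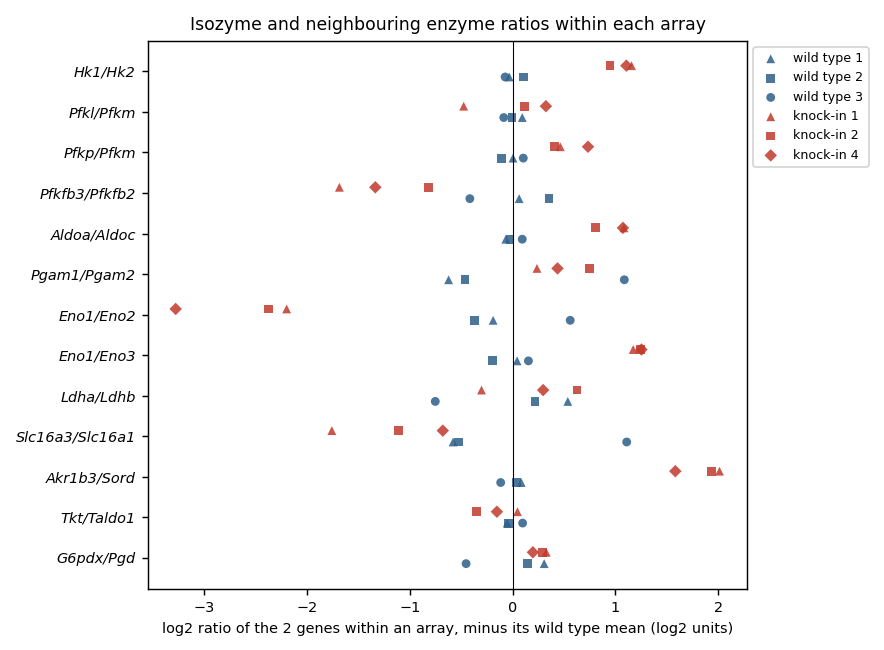
Log2 ratio of the signals of 2 genes within an array, minus the mean ratio of the 3 wild type arrays (horizontal axis, log2 units), for 13 pairs, with red for knock-in and blue for wild type arrays. For 8 pairs, Akr1b3/Sord and both Eno1 pairs among them, the red symbols lie wholly on one side of the blue ones.

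Other genes around the pathway were read from lists of its remaining isozymes and branches. In pyruvate and lactate handling, 2 of 14 tested genes rose and 1 fell, together 21.4% against 25.9% of all genes. Pdk4, another kinase of pyruvate dehydrogenase that is known to rise in fasting, read -1.0, -0.91 and -0.68 in knock-in and -3.90, -4.09 and -4.08 in wild type lenses. It rose by 3.16 (SE 0.16, limma adjusted p = 8.97e-05), and was well above background on 1 wild type array, so the size is set partly against background. Under a random slide effect it also passed (limma adjusted p = 0.00196), and with normexp background correction it did not, at a difference of 1.30, the one of its 15 alternatives that ended the call. Pdhx, a structural subunit of the pyruvate dehydrogenase complex, fell by 1.52 on the log2 scale (limma adjusted p = 0.00754) and Pdp1, a phosphatase that switches the complex on, rose by 0.67 (limma adjusted p = 0.0251). Pdhx passed in 14 of 16 alternatives, losing its call with normexp and under a random slide effect (limma adjusted p = 0.0585). Pdp1 passed in 6 of 16, and did not under that effect (limma adjusted p = 0.236).

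Among 7 other glycolytic genes tested by limma, 3 were higher and 0 lower at an unadjusted p under 0.05. After adjustment 2 rose and none fell, which is 28.6% against 25.9% of all genes. They were Bpgm, which makes 2,3-bisphosphoglycerate, at 0.65 (limma adjusted p = 0.0354), and Tigar, a phosphatase that lowers fructose 2,6-bisphosphate, at 0.90 (limma adjusted p = 0.0481). Bpgm passed in 8 and Tigar in 5 of 16 alternatives, and neither under a random slide effect (limma adjusted p = 0.307 and 0.313). Of 8 other glucose transporters listed, Slc2a8 was tested and differed by 0.19 (limma adjusted p = 0.629), 6 were too dim and Slc2a12 had no matched probe. In the pentose phosphate pathway, H6pd, the dehydrogenase of the endoplasmic reticulum, rose by 0.68 (limma adjusted p = 0.0438) and Shpk, sedoheptulose kinase, fell by 1.91 on the log2 scale (limma adjusted p = 0.0075), of 6 tested. That is 33.3% against 25.9% of all genes. H6pd passed in 6 of 16 alternatives. Shpk, well above background on 1 knock-in array, passed in 13 of 15, and neither gene passed under a random slide effect (limma adjusted p = 0.304 and 0.138). In the fructose and aldo-keto reductase group of 3 tested, Khk, ketohexokinase, which phosphorylates the fructose made by Sord, fell by 0.89 on the log2 scale (limma adjusted p = 0.0137). It read 1.07, 0.82 and 1.17 in knock-in and 1.79, 1.78 and 2.15 in wild type lenses. Akr1b8, a reductase related to Akr1b3, rose by 1.43 (limma adjusted p = 0.0357). With Khk, 66.7% of these 3 passed, against 25.9% of all genes. Khk passed in 13 and Akr1b8 in 10 of 16 alternatives, and neither under a random slide effect (limma adjusted p = 0.136 and 0.14).

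In gluconeogenesis and glycogen metabolism, limma's test on 13 genes gave 4 lower and 4 higher at an unadjusted p under 0.05. After adjustment 1 was lower and none rose, which is 7.69% against 25.9% of all genes. It was Pck2, the mitochondrial phosphoenolpyruvate carboxykinase, which did not rise well above background in knock-in lenses and was at least 1.06-fold lower (limma adjusted p = 0.00965). For that bound, each knock-in array was given its lowest signal that was well above background, or the probe's own where higher. Pck2 passed the filter on dim probes through the wild type arrays alone, so its p-value compares signal with background. Pck2 passed in 13 of 15 alternatives, losing its call under a random slide effect (limma adjusted p = 0.125) and with normexp, and its measured difference was as small as -0.08.

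Many of the pathway genes are known HIF targets, among them Slc2a1, Hk2, Pfkfb3, Aldoa, Aldoc, Pgk1, Eno1, Ldha, Slc16a3 and Pdk1. The genes named here are not a complete list. Of those named, Pfkfb3, Aldoc and Slc16a3 passed and were lower, and the rest did not pass. Over all genes 12.6% were called lower. The other pathway genes that passed were Sord and Eno3, lower, and Gpi1 and Eno2, higher. HIF targets may be among these too, and the genes were named with their values known. The count therefore gives no direction for HIF targets as a group. Of 22 other genes of the hypoxia response tested, 2 rose and 3 fell, which is 22.7% against 25.9% of all genes, with a median of -0.12. Ndrg1, a stress protein induced by hypoxia, read 4.23, 4.19 and 4.30 in knock-in and 6.22, 6.24 and 6.33 in wild type lenses. It fell by 2.02 on the log2 scale (SE 0.14, limma adjusted p = 0.000262) and passed in all 16 alternatives. P4ha2, a prolyl hydroxylase of collagen, fell by 0.68 on the log2 scale (limma adjusted p = 0.0445) and passed in 6 of 16. The other one, Ankrd37, chosen here with its value known, fell by 0.77 on the log2 scale (limma adjusted p = 0.0454) and passed in 6 of 16. Vegfa, the vascular growth factor, rose by 1.23 (limma adjusted p = 0.00637), and Ddit4, an inhibitor of mTORC1, by 1.01 (limma adjusted p = 0.00938). Neither passed under a random slide effect (limma adjusted p = 0.0903 and 0.0937). Hif1a itself differed by -0.06 (limma adjusted p = 0.842).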

How the data were processed

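Each array file held spot intensities as deposited by the authors: the processed signal, background-subtracted and detrended within the array by Agilent Feature Extraction (version 11.0.1.1 per the file headers, 9.1 per the submitters' processing notes), and the median spot and background intensity. How the authors scaled arrays to each other was not given in the sources used here. No spot was saturated.

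From these intensities, log2 of the processed signal was taken, the 75th percentile of the array's 43020 non-control spots subtracted, outlier spots dropped and spots of a probe averaged. A probe passed if at least 50% of its spots were well above background on all arrays of 1 group (21076 of 39429 probes). A gene can thus enter the test through the group where it is high alone. For such a gene the size and the p-value are set partly against background. Probes were named by unversioned RefSeq accession through a GRCm38.p6 table (27234 probes), and the brightest passing probe represented each of 12785 genes. Limma 3.58.1 in R 4.3.3 (lmFit, eBayes, 4 residual degrees of freedom) was fitted across all genes and tested on simulated data. Genes named are all 33 pathway genes and, of each further list, up to 4 past the threshold with the smallest p. Cell type markers, Hif1a, Slc2a8, Slc2a12 and Ankrd37 are named outside that rule, with their values known. The pathway genes and lists were chosen with earlier results of these data known, and 2 genes of the further lists are not reported here. The labels call the arrays biological replicates, and no 2 replicates of a group shared an identical spot value. The 16 alternatives covered scaling, background, filters, probes, flags, blocks and each array left out. When an array was left out, the genes and probes were kept.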

Additional observations from a re-analysis of the deposited data

How the results depend on the processing

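All 7 called pathway genes kept their direction in each of the 16 alternatives. All 7 also passed with a scan day term, with probes above background on all arrays and with outlier spots kept, 6 after quantile normalization and with the mean of a gene's probes, 5 with median centring or normexp, 4 without the filter on dim probes and 1 under a random slide effect (consensus correlation 0.56). The counts of pathway genes called were 2 higher and 5 lower as reported. They were 5 higher and 4 lower after quantile normalization, where Aldoa, Ldha and Akr1b3 also passed as higher, 1 higher with median centring, 1 higher with normexp, 3 lower without the filter and 0 higher and 1 lower under a random slide effect. Leaving out 1 array gave 1 to 2 higher and 3 to 6 lower. In limma's fit with that slide effect, 2 pathway genes were higher and 5 lower at an unadjusted p under 0.05, against 1331 and 1273 of all 12785 genes.

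Over all genes, 1697 were higher and 1615 lower. The counts were 716 and 716 with normexp, 1127 and 875 without the filter, and 362 and 258 under a random slide effect. They were 3066 lower with a scan day term, and 785 to 2500 higher and 743 to 3066 lower with 1 array left out. With median centring 1143 were higher and 1655 lower. Genes of the other lists, 8 higher and 7 lower, gave 13 higher after quantile normalization, 5 higher with median centring, 3 and 1 with normexp, 5 higher without the filter, 1 and 1 under a random slide effect, 14 and 13 with a scan day term, and 3 to 14 higher and 4 to 13 lower with 1 array left out.

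The replicate numbers 1 and 2 occur in both genotypes. The deviations of same-numbered arrays correlated at r = 0.17 and -0.22. Knock-in array 1 with wild type array 2 gave 0.22, and knock-in array 2 with wild type array 1 gave -0.18. With so few arrays these values cannot show whether the numbers mark a pairing. With replicate number as a block, 3 pathway genes were higher and 7 lower, 3112 of all genes were lower and 15 genes of the other lists were lower.

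Differences that turned in sign belonged to genes that did not pass. After quantile normalization these were Gapdh at 0.11, Eno1 at 0.25, Tkt at 0.17 and Taldo1 at 0.04. With normexp they were Slc2a1 at -0.04, Gapdh at 0.04, Pgam1 at -0.06, Pkm at -0.05 and Pgd at -0.03. With the mean of a gene's probes they were Pfkp at -0.32, Gapdh at 0.04 and Ldha at -0.16. With a scan day term they were Slc2a1 at -0.07, Pfkfb2 at 0.26 and Slc16a1 at -0.04. With the replicate block they were Slc2a1 at -0.10, Pfkfb2 at 0.04 and Taldo1 at 0.07. With 1 array left out, the ranges were -0.07 to 0.30 for Slc2a1, -0.03 to 0.27 for Pfkp, -0.24 to 0.26 for Pfkfb2, -0.33 to 0.03 for Gapdh, -0.11 to 0.15 for Pgk1, -0.02 to 0.17 for Pkm, -0.04 to 0.73 for Slc16a1 and -0.14 to 0.01 for Taldo1. Of the ratios, Pgam1 to Pgam2 turned to -0.01 with normexp and Ldha to Ldhb to -0.16 with the mean of probes. The ranges with 1 array left out were -0.18 to 0.22 for Pfkl to Pfkm and -0.17 to 0.48 for Ldha to Ldhb. The causes of these shifts were not tested. The number of arrays, 3 in each group, limits the precision.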
